A study of Mus musculus with 6 samples.

Results

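The 9 genes described here encode proteins that start blood clotting, hold it in check or turn plasminogen into plasmin, and they were followed in the mouse heart 3 days after myocardial infarction (MI). They are F3, F7, F10, Tfpi, Thbd, Plat, Plau, Plaur and Serpine2, taken by symbol from the 17441 genes that had a value in at least 1 library. All 9 had a value and all 9 passed the filter on low values, F7 and F10 through the libraries after infarction alone. The data were bulk RNA-seq of polyadenylated RNA from heart tissue below the ligature of the left coronary artery, in 6 libraries from 12-week-old male mice. There were 2 libraries from wild-type mice after sham surgery (WT Sham), 2 from wild-type mice after infarction (WT MI) and 2 from mice with a Card9 knockout after infarction (Card9 KO MI). The knockout was carried on a C57BL/6 background, and controls were wild-type littermates and C57BL/6 mice. Knockout mice after sham surgery were not analysed here, so infarction and genotype cannot be told apart when Card9 KO MI is set against WT Sham. The labels do not say whether the 2 libraries of a group came from separate hearts, so p-values measure only the spread between these samples.

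Values were deposited as FPKM, fragments per kilobase of transcript scaled to the library's mapped fragments. This puts genes of different length and libraries of different depth on a common scale. Comparisons between libraries still depend on the scaling, and other scalings changed some calls, as given below. An estimated 3012466 to 4282848 fragments stood behind a library, with the WT Sham libraries the shallowest. The cardiomyocyte markers were present throughout, with a summed level of 65275 to 66655 FPKM in WT Sham, 37119 to 38692 in WT MI and 30917 to 35825 in Card9 KO MI. Card9, the targeted gene, read 0.99 and 1.03 FPKM in WT Sham and 3.39 and 5.08 in WT MI. Both libraries labelled Card9 KO MI were higher than these, at 9.85 and 6.94 FPKM, and directions that involve this group are given for the libraries as labelled.

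Clotting outside the blood begins when tissue factor, encoded by F3, binds factor VII (F7) and the complex activates factor X (F10), which leads to thrombin and then fibrin. Tissue factor pathway inhibitor (Tfpi) blocks this complex, and thrombomodulin (Thbd) on endothelium turns thrombin towards the activation of protein C. Fibrin is removed by plasmin, which tissue-type (Plat) and urokinase-type (Plau) plasminogen activators cut from plasminogen. The urokinase receptor (Plaur) holds urokinase at the cell surface, and protease nexin-1 (Serpine2) inhibits thrombin and both activators. In the infarcted heart, urokinase and its receptor are known for their part in the entry of inflammatory cells and in matrix breakdown during healing.

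In mm9, the build that the files use, F3 lies on chr3:121426455-121437970 (+), Tfpi on chr2:84273012-84316932 (-) and Thbd on chr2:148230207-148233924 (-). F7 on chr8:13026034-13035809 (+) and F10 on chr8:13037308-13056676 (+) are neighbours on the same strand, with 1498 bases between the end of F7 and the start of F10. Plat lies on chr8:23868216-23893319 (+), Plau on chr14:21655884-21662610 (+), Plaur on chr7:25247519-25260892 (+) and Serpine2 on chr1:79790772-79855271 (-). None of the 9 overlapped another annotated gene. The RefSeq promoter table (GRCm38.p6) held 7 start sites for 6 of the genes, and Thbd, Plat and Plau had no entry. The 250 bases before the start are shown for F3 and Plaur, which moved in opposite directions after MI and were the pair whose windows held an AP-1 motif, and for the neighbours F7 and F10. Each window was found once in mm9, at chr3:121426205-121426454 for F3, chr7:25247252-25247501 for Plaur, chr8:13025784-13026033 for F7 and chr8:13037058-13037307 for F10, all on the + strand. They are written 5′ to 3′, with matches to the AP-1 motif TGANTCA and the SP1 motif GGGCGG in capitals, the latter also as its reverse complement.
F3: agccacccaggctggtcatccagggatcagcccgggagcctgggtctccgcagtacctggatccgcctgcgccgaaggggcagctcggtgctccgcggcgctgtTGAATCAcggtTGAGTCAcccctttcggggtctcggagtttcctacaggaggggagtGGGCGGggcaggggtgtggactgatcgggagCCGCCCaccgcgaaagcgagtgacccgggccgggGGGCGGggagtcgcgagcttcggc
Plaur: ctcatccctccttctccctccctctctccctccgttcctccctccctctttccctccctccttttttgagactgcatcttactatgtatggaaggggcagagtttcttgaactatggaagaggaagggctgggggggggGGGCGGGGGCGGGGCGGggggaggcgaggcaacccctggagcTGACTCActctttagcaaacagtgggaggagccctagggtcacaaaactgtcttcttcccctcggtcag
F7: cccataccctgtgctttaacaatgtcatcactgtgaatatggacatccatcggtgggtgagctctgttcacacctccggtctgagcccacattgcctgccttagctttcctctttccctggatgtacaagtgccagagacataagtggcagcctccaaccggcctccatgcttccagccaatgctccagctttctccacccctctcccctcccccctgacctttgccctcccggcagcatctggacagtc
F10: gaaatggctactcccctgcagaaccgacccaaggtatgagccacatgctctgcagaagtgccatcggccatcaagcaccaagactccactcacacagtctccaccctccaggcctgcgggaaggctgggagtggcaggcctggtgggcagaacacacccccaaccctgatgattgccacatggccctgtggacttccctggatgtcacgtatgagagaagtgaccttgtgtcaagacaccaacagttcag
The F3 window held AP-1 matches from 146 to 140 and from 135 to 129 bases before the start, and the Plaur window held 1 from 69 to 63 bases before it. An AP-1 match was found in 2 of the 7 windows and in 6.75% of the 32851 windows of this length in the table. SP1 matches stood in 5 of the 7 windows against 32.7% of all windows, with 3 each in F3 and Plaur and 6, some overlapping, in Serpine2. No match to AP-1 or SP1 was found in the F7 and F10 windows. A loose NF-kB pattern, GGG, then 5 bases of any kind, then CC, matched 5 of the 7 windows and 45.8% of all, with 4 matches, counted on both strands with overlaps, in F3, 2 in Plaur, 1 in F10 and 0 in F7, which are not in capitals. The TATA box TATAAA matched 1 of 7, a Tfpi start site on the opposite strand, and 12.4% of all, and the core TGACG of the cyclic AMP response element matched 0 of 7 and 17.8% of all. Both strands were searched in each case, and a match only describes the letters in a window.

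**Figure D1:**
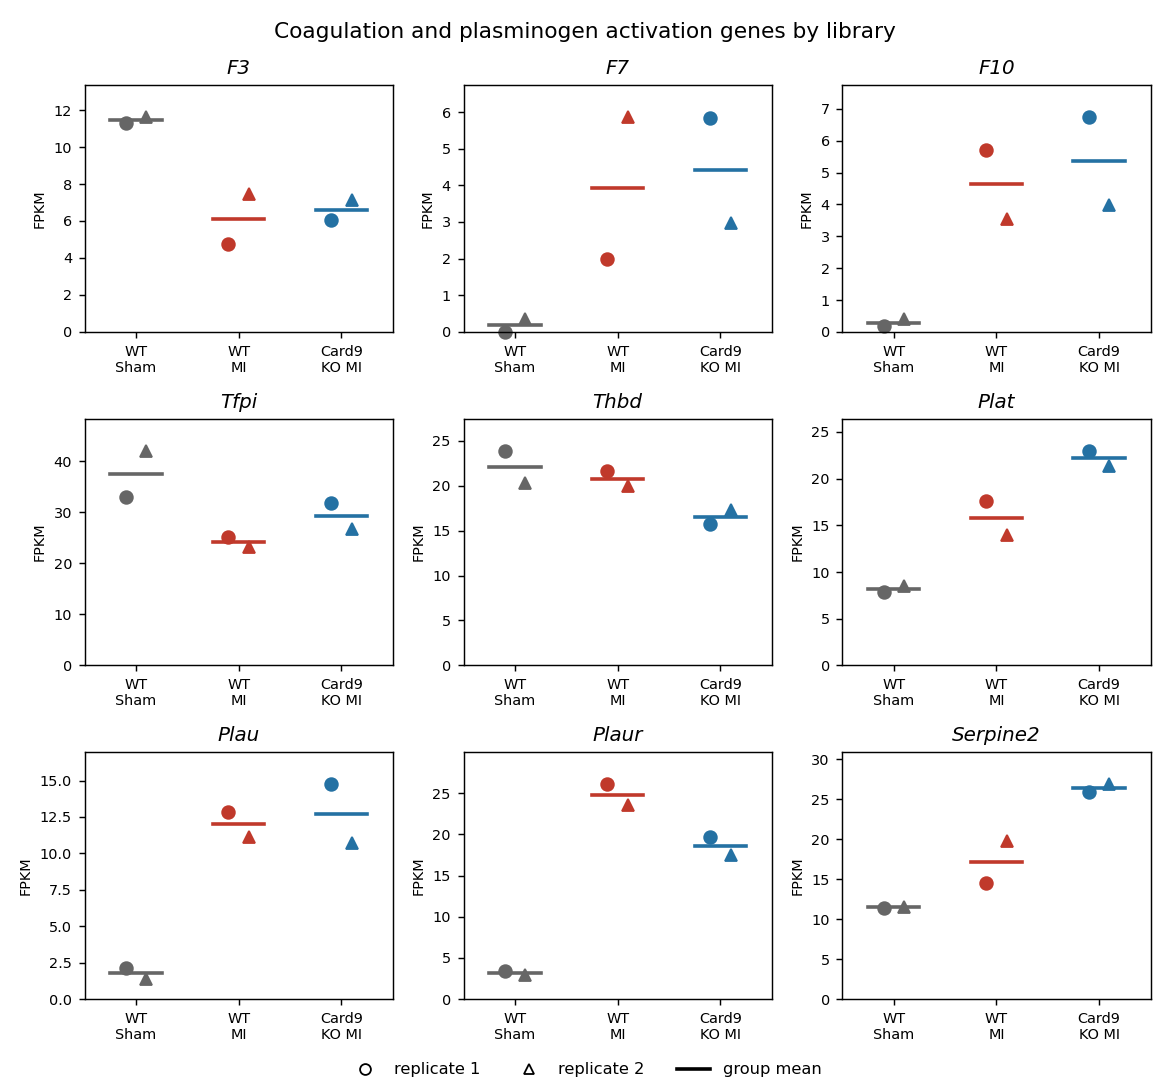
FPKM of the 9 genes (vertical axis, linear from 0) in the 6 libraries, by group (horizontal axis). Each point is 1 library, circle for replicate 1 and triangle for replicate 2, and each bar is the group mean: F7 and F10 stay below 0.4 FPKM in WT Sham, Plau and Plaur are several-fold higher in every infarct library, and F3 is lower in every infarct library.

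The first question was how infarction changed these genes in wild-type hearts. Of the 9 genes, 6 rose in WT MI against WT Sham (F7, F10, Plat, Plau, Plaur and Serpine2), 2 fell (F3 and Tfpi) and Thbd did not pass the test, by limma at an adjusted p under 0.05 over 13120 genes. Over all genes tested, 27.7% were called higher and 9.39% lower. The 9 genes had a median log2 difference of 0.86, beside 0.19 over all genes. The WT MI and WT Sham libraries did not overlap for 8 of the 9, beside 70.4% of all genes. Without WT Sham replicate 2 the call for both lower genes was lost, which left 5 higher and 0 lower, and without WT MI replicate 1 it was 6 higher and 0 lower. In whole tissue, fewer cells of a type and less RNA per cell cannot be told apart.

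F3, the cell-bound trigger of clotting, read 11.31 and 11.62 FPKM in WT Sham and 4.75 and 7.47 in WT MI. Both infarct libraries lay below both sham libraries, with means of 11.5 ± 0.219 and 6.11 ± 1.92 (SD, n = 2). F3 fell by 0.84 ± 0.20 (SE) on the log2 scale of FPKM + 1, limma adjusted p = 0.0139. This size rests partly on WT MI replicate 1, without which the change was -0.56 with an adjusted p of 0.0745, and without WT Sham replicate 2 the adjusted p was 0.0589.

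The partners of tissue factor moved the other way. F7, the protease that tissue factor binds, was listed at 0 and 0.35 FPKM in WT Sham and at 1.99 and 5.86 in WT MI. The WT MI libraries did not overlap with WT Sham but were far apart from each other. F7 rose with a log2 difference of 1.96 (95% interval 0.98 to 2.95, limma adjusted p = 0.00924). F10, which the complex activates, read 0.17 and 0.39 FPKM in WT Sham and 5.72 and 3.54 in WT MI, and rose with a log2 difference of 2.11 (95% interval 1.45 to 2.78, adjusted p = 0.00113). Of the WT MI libraries, replicate 2 was the higher for F7 and replicate 1 for F10. The WT Sham values correspond to an estimated 0 and 1.96 fragments for F7 and 1.35 and 2.94 for F10, at or under the floor of 3 fragments, so no ratio is given. Both genes passed the filter on low values only through the infarct libraries, where they were high. Their p-values and intervals therefore come after a selection through that group. With no filter the limma adjusted p was 0.0309 for F7 and 0.00653 for F10. The size of these log2 differences depends on the constant added: with 0.1 FPKM they were 4.06 for F7 and 3.66 for F10, and with 5 FPKM 0.75 and 0.86, each past the threshold.

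F7 and F10 are mostly products of the liver, and hepatocyte markers were low. Their summed level was 3.28 to 4.39 FPKM in WT Sham, 4.13 to 5.13 in WT MI and 2.17 to 2.97 in Card9 KO MI. Of these 8 markers 7 were listed, 2 passed the filter and 0 were called by limma in any comparison, with 0 of 2 at an unadjusted p under 0.05 in WT MI against WT Sham and 1 of 2 in each comparison with Card9 KO MI. Single markers lay between 0 and 2.38 FPKM, with the highest values for Ahsg (up to 2.38) and Apoa2 (up to 2.06), while Alb, albumin, reached 0.59. Ahsg was lower in Card9 KO MI than in WT MI by a log2 difference of -0.93 (unadjusted p = 0.00978, limma adjusted p = 0.126). Prothrombin (F2) and the fibrinogen chains Fga and Fgb were listed in no library, and the chain Fgg had 0.16 FPKM in WT MI replicate 1 alone.

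Neither Tfpi nor Thbd rose in wild-type hearts. Tfpi, the inhibitor of the tissue factor complex, read 33.10 and 42.08 FPKM in WT Sham and 25.19 and 23.29 in WT MI. It was the most abundant of the 9 genes in WT Sham, and both WT MI libraries lay below both sham libraries. Tfpi fell by 0.60 ± 0.15 (SE) on the log2 scale, limma adjusted p = 0.0144. The adjusted p became 0.0802 when WT Sham replicate 2 was left out, 0.0523 when WT MI replicate 1 was, and 0.0797 when WT MI replicate 2 was. Thbd, the endothelial receptor for thrombin, read 23.88 and 20.24 FPKM in WT Sham and 21.57 and 19.95 in WT MI. Its groups overlapped, with a log2 difference of -0.08 (95% interval -0.37 to 0.21, adjusted p = 0.655). The ratio of F3 to Tfpi within a library was 0.342 and 0.276 for WT Sham, 0.189 and 0.321 for WT MI, and 0.191 and 0.265 for Card9 KO MI. The WT MI range overlapped those of both other groups, while both Card9 KO MI libraries lay below both sham libraries.

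Tfpi and Thbd are typical of endothelium, whose markers moved in no common direction. Of 10 endothelial markers in WT MI against WT Sham, 2 were higher, 1 was lower and 7 did not pass the test, and their summed level was 401 to 410 FPKM in WT Sham, 435 in both WT MI libraries and 496 to 507 in Card9 KO MI. Their part in the values of Tfpi and Thbd was not tested.

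The plasminogen activators rose to different extents. Plat, tissue-type activator, read 7.91 and 8.51 FPKM in WT Sham and 17.60 and 13.92 in WT MI. Every infarct library exceeded both sham libraries, and the mean rose 1.92-fold, from 8.21 ± 0.424 to 15.8 ± 2.60 (log2 difference 0.86 ± 0.14 SE, limma adjusted p = 0.00294). Plau, urokinase, read 2.15 and 1.40 FPKM in WT Sham and 12.85 and 11.15 in WT MI. Its mean rose 6.76-fold, from 1.78 to 12.0 (log2 difference 2.24 ± 0.21 SE, adjusted p = 2.17e-04). The groups were well separated, and Plau went from well below Plat towards it. The ratio of Plau to Plat within a library was 0.272 and 0.165 for WT Sham and 0.730 and 0.801 for WT MI, against 0.641 and 0.501 for Card9 KO MI.

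Plaur, the receptor that binds urokinase, read 3.43 and 2.86 FPKM in WT Sham and 26.08 and 23.51 in WT MI. The means of 3.15 ± 0.403 and 24.8 ± 1.82 differed 7.88-fold. On the scale of FPKM + 1 this was the largest log2 difference of the 9 genes (2.64, 95% interval 2.32 to 2.96, limma adjusted p = 2.51e-05). With 0.1 FPKM added instead, Plaur was at 2.94, below F7 (4.06) and F10 (3.66). Within a library the ratio of Plau, its ligand, to Plaur was 0.627 and 0.490 for WT Sham and 0.493 and 0.474 for WT MI, ranges that overlapped. Serpine2, the inhibitor of thrombin and the activators, read 11.45 and 11.46 FPKM in WT Sham and 14.56 and 19.76 in WT MI. Its groups did not overlap, with means of 11.5 ± 0.00707 and 17.2 ± 3.68 (log2 difference 0.53, 95% interval 0.18 to 0.88, adjusted p = 0.0280). This was the weakest of the 8 calls. It was lost under each other scaling tried, at 0.38 and an adjusted p of 0.0959 with the upper quartile, 0.30 and 0.164 with quantile normalization, and 0.39 and 0.0837 with the sum that leaves out the 100 most abundant genes. Without WT MI replicate 2 the difference was 0.32 (adjusted p = 0.157), and the call was also lost without either WT Sham library (0.0830 and 0.0883) and with no filter on low values (0.0516).

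Many markers of infiltrating cells and of fibroblasts also rose in WT MI. Of 12 macrophage markers all 12 rose in WT MI against WT Sham, with a summed level of 302 to 359 FPKM in WT Sham, 1323 to 1687 in WT MI and 1936 to 2692 in Card9 KO MI. Of 10 neutrophil markers 8 were tested and 8 rose, from 5.40 to 7.87 FPKM in WT Sham to 99.4 to 229 in WT MI, with 49.4 to 62.8 in Card9 KO MI. Of 10 fibroblast markers 8 rose, and 8 of 10 cardiomyocyte markers fell. Smooth muscle and pericyte markers split, with 4 of 8 higher and 3 lower. Their summed level was 283 to 329 FPKM in WT Sham and 322 to 333 in WT MI. Platelet markers summed to 13.4 to 17.8 FPKM in WT Sham, 117 to 131 in WT MI and 88.4 to 125 in Card9 KO MI, with 2 of the 4 tested markers higher in WT MI. Of 4 erythroid markers tested 3 were higher in WT MI, with a median log2 difference of 1.51 and a summed level of 704 to 1645 FPKM for WT Sham, 2784 to 4187 for WT MI and 1338 to 2673 for Card9 KO MI. The part of these cells in the levels of the 9 genes was not tested.

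**Figure D2:**
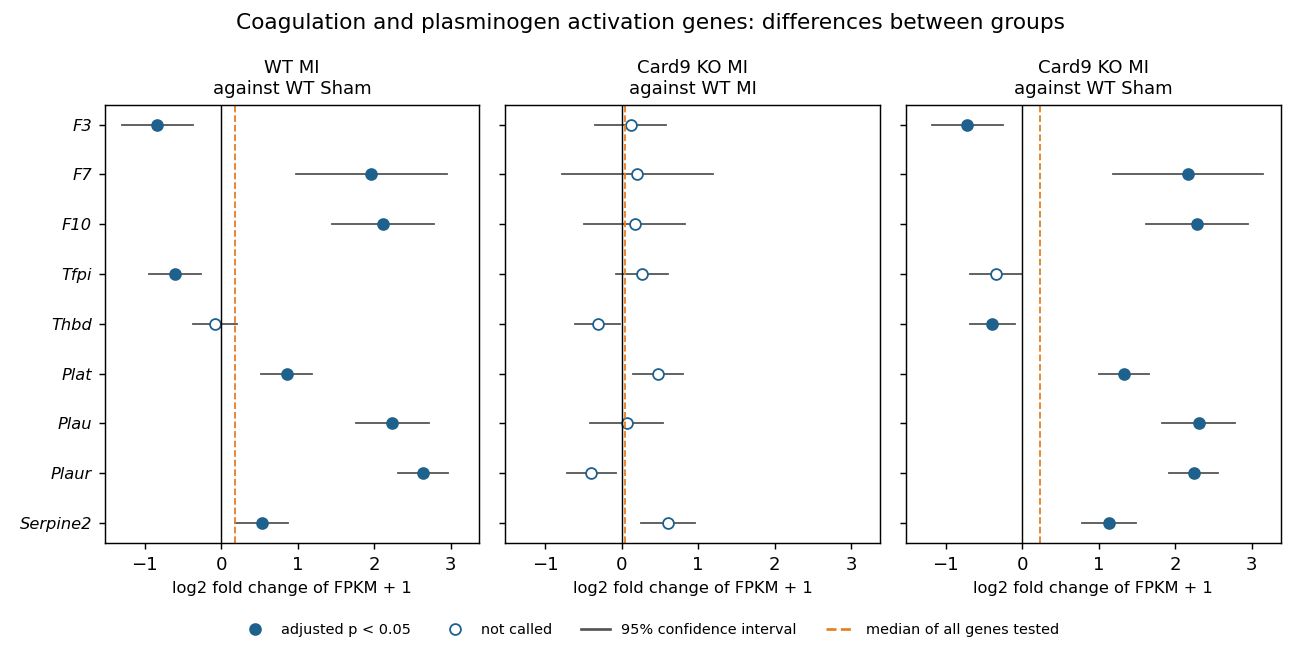
Log2 difference of FPKM + 1 (horizontal axis, same scale in each panel) for the 9 genes in 3 comparisons. Points are limma estimates, filled at an adjusted p under 0.05, with lines for 95% confidence intervals and a dashed line at the median of all genes tested: 8 points are filled in WT MI against WT Sham, 0 in Card9 KO MI against WT MI and 8 in Card9 KO MI against WT Sham.

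The second question was whether the libraries labelled Card9 KO MI differed from WT MI. None of the 9 genes passed the test (0 of 9, limma adjusted p under 0.05), while 4 had an unadjusted p under 0.05 (Thbd, Plat, Plaur and Serpine2). Over all genes tested 1.40% were called and 20.0% had an unadjusted p under 0.05. The groups did not overlap for 5 of the 9 genes, beside 52.7% of all genes. An exact permutation test on a single gene cannot give a p below 0.333 with 2 libraries against 2.

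Serpine2 had the largest of these differences. It read 25.91 and 26.87 FPKM in Card9 KO MI against 14.56 and 19.76 in WT MI, a ratio of means of 1.54 and a log2 difference of 0.61 (95% interval 0.26 to 0.96, limma adjusted p = 0.0961). The 3 groups did not overlap, with WT Sham lowest and Card9 KO MI highest. Plat had the same order, at 22.98 and 21.39 FPKM in Card9 KO MI against 17.60 and 13.92 in WT MI (log2 difference 0.48, 95% interval 0.15 to 0.81, adjusted p = 0.131). The Serpine2 difference was 0.40 without WT MI replicate 1, and that of Plat was 0.32 without WT MI replicate 2.

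Plaur was the other way, at 19.63 and 17.48 FPKM in Card9 KO MI against 26.08 and 23.51 in WT MI (log2 difference -0.40, 95% interval -0.72 to -0.08, limma adjusted p = 0.168). Its ligand did not share this order: Plau read 14.74 and 10.72 FPKM in Card9 KO MI, on both sides of the WT MI values, with a log2 difference of 0.07 (95% interval -0.41 to 0.54, adjusted p = 0.897). The ratio of Plau to Plaur was 0.751 and 0.613 in Card9 KO MI, above both WT MI libraries. Thbd read 15.74 and 17.30 FPKM in Card9 KO MI, below both WT MI libraries (log2 difference -0.31, 95% interval -0.61 to -0.02, adjusted p = 0.222).

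The tissue factor genes and Tfpi did not pass the test between the infarct groups, and F7 and F10 had the widest intervals of the 9 genes. F3 read 6.08 and 7.11 FPKM in Card9 KO MI, inside the WT MI range (log2 difference 0.12, 95% interval -0.35 to 0.58). F7 read 5.85 and 2.98 FPKM, also inside that range (0.21, 95% interval -0.78 to 1.19), an interval that allows a change of either sign. F10 read 6.74 and 3.98 FPKM and overlapped with WT MI (0.17, 95% interval -0.50 to 0.83). Tfpi read 31.87 and 26.80 FPKM, above both WT MI libraries (0.26, 95% interval -0.08 to 0.60). The limma adjusted p was 0.792 for F3, 0.836 for F7, 0.794 for F10 and 0.365 for Tfpi.

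Some cell markers differed between these groups as well. In Card9 KO MI against WT MI, 4 of 10 fibroblast markers were called higher, with a summed level of 3118 to 3254 FPKM against 1505 to 2035. Of 8 smooth muscle and pericyte markers 2 were called higher, at 549 to 563 FPKM against 322 to 333. In these lists 7 of 10 and 6 of 8 had an unadjusted p under 0.05, with median log2 differences of 0.70 and 0.61. Not every marker was higher: Pdgfra (log2 difference -0.52, limma adjusted p = 0.0939), Dcn (-0.16, 0.537) and Abcc9 (-0.44, 0.119) were lower without a call. Of the 12 macrophage markers 0 were called by limma and 6 had an unadjusted p under 0.05, with a median log2 difference of 0.66. Of the 8 neutrophil markers tested 0 were called and 3 had an unadjusted p under 0.05, with a median of -0.61 and a summed level of 49.4 to 62.8 FPKM against 99.4 to 229 in WT MI. Of the 4 erythroid markers tested 0 were called and 1 had an unadjusted p under 0.05, with a median of -0.80 and 1338 to 2673 FPKM against 2784 to 4187. Among 10 endothelial markers 0 were called and 3 had an unadjusted p under 0.05, with a median of 0.17. For 10 cardiomyocyte markers these counts were 0 and 4, with a median of -0.16. The part of these cells in the values of Thbd, Serpine2, Plat and Plaur was not tested.

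Against WT Sham, the libraries labelled Card9 KO MI gave 6 genes higher and 2 lower, where 34.8% and 14.3% of all genes were called. All 9 genes had libraries that did not overlap, beside 76.1% of all genes. This comparison shares its sham libraries with the first one, so the comparisons are not independent and calls in common are partly built in. The same 6 genes as in WT MI were higher, with limma adjusted p values of at most 0.00416. The log2 difference was 2.17 for F7, 2.28 for F10, 1.33 for Plat, 2.30 for Plau, 2.24 for Plaur and 1.14 for Serpine2. F7 and F10 were at or under the floor in WT Sham and passed the filter only through the infarct libraries. Their p-values here again come after that selection. Over the alternatives their differences ranged from 0.85 to 4.33 for F7 and from 0.96 to 3.86 for F10. F3 fell by 0.72 (adjusted p = 0.0196) and Thbd fell by 0.39 (adjusted p = 0.0340). Tfpi, which was called in WT MI, was at -0.34 and was not called here (adjusted p = 0.0857), although all 3 other scalings called it, at -0.51 to -0.53. The call for F3 was lost without either WT Sham library (adjusted p = 0.0605 and 0.0721) or without Card9 KO MI replicate 1 (0.101). The call for Thbd was lost without any 1 library except WT Sham replicate 2, with adjusted p values of 0.0525 to 0.167, and when the fit held only these groups (0.0541) or no trend (0.0574). For Tfpi and Thbd, the difference between the infarct groups did not pass the test, as given above.

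The order of levels among the 9 genes changed between the groups. In WT Sham the means ran from Tfpi (37.6 FPKM) through Thbd (22.1), F3 (11.5), Serpine2 (11.5), Plat (8.21), Plaur (3.15) and Plau (1.78) to F10 (0.280) and F7 (0.175). F3 and Serpine2 overlapped in range there, and so did F10 and F7. In WT MI the highest were Plaur (24.8), Tfpi (24.2) and Thbd (20.8), of which Plaur and Tfpi overlapped. They were followed by Serpine2 (17.2) and Plat (15.8), which overlapped, Plau (12.0), F3 (6.11), F10 (4.63) and F7 (3.93), with overlap among F3, F10 and F7. In Card9 KO MI the order was Tfpi (29.3), Serpine2 (26.4), Plat (22.2), Plaur (18.6), Thbd (16.5), Plau (12.7), F3 (6.60), F10 (5.36) and F7 (4.42), with overlap between Tfpi and Serpine2, between F3 and F10 and between F10 and F7, but not between F3 and F7. In WT Sham F3 stood well above F7 and F10, while in both infarct groups the ranges of F3 and F10 overlapped.

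The other genes of the pathway came from a list of 46, of which 34 were listed in at least 1 library and 19 passed the filter. In WT MI against WT Sham 13 of the 19 rose and 0 fell by limma, where 27.7% of all genes were called higher and 9.39% lower. An unadjusted p under 0.05 was found for 14 of the 19, and their median log2 difference was 0.95 beside 0.19 over all genes. In Card9 KO MI against WT MI 0 of 19 were called and 5 had an unadjusted p under 0.05, beside 1.40% and 20.0% of all genes. Of these 5, F13a1 (log2 difference -0.49, limma adjusted p = 0.123), Serping1 (-0.34, 0.223) and Gas6 (-0.23, 0.221) were lower and S100a10 (0.35, 0.217) and F2r (0.46, 0.109) were higher. Against WT Sham, Card9 KO MI gave 13 higher and 0 lower, where 34.8% and 14.3% of all genes were called. There were 12 genes that rose in both infarct groups, whose comparisons share the sham libraries. The 12 genes listed in no library included plasminogen itself (Plg), the substrate of both activators. The 15 genes listed but under the filter stayed at or under 1.49 FPKM.

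**Figure D3:**
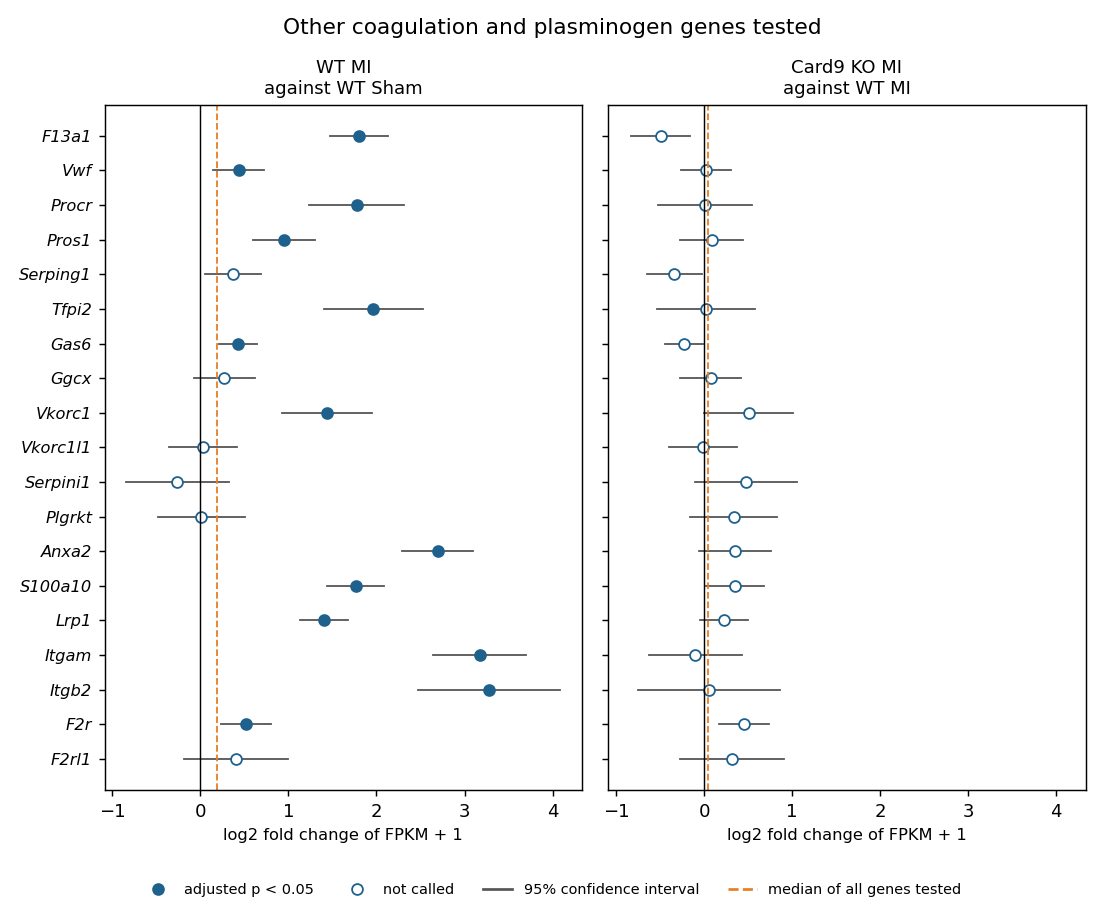
Log2 difference of FPKM + 1 (horizontal axis, same scale in both panels) for the 19 other pathway genes tested. Points are limma estimates, filled at an adjusted p under 0.05, with lines for 95% confidence intervals and a dashed line at the median of all genes tested: 13 points, all to the right of 0, are filled in WT MI against WT Sham and 0 in Card9 KO MI against WT MI.

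Urokinase also gained on its inhibitor among the 9 genes. The ratio of Plau to Serpine2 within a library went from 0.188 and 0.122 for WT Sham to 0.883 and 0.564 for WT MI, with 0.569 and 0.399 in Card9 KO MI, and every infarct library lay above both sham libraries.

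**Figure D4:**
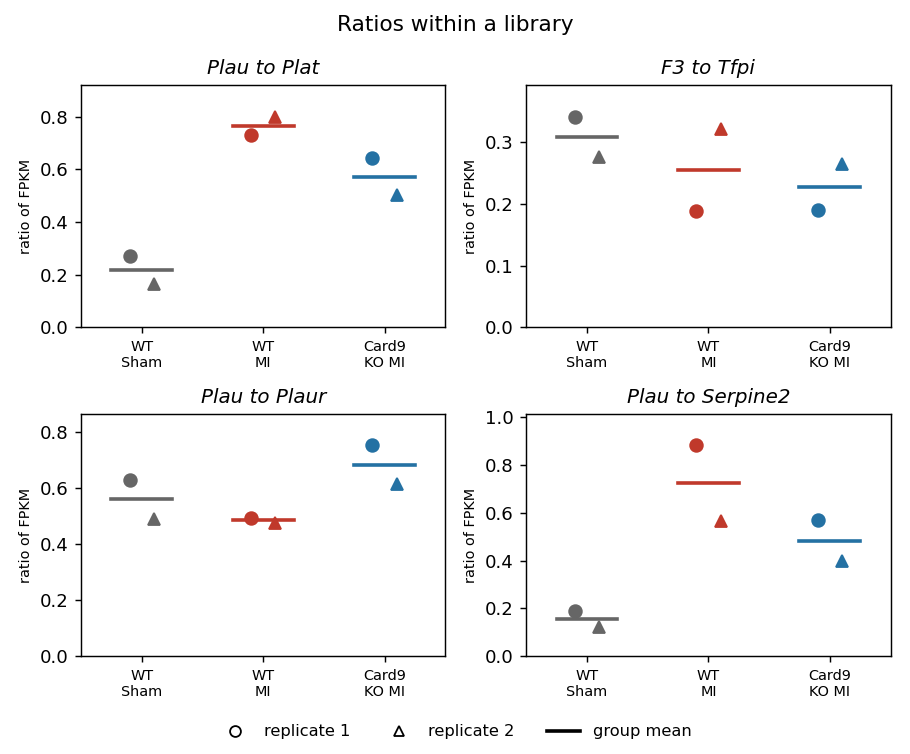
Ratios of FPKM between a pair of genes (vertical axis, linear from 0) in each of the 6 libraries, by group. Each point is 1 library and each bar is the group mean: Plau to Plat and Plau to Serpine2 are higher in every infarct library, and F3 to Tfpi in WT MI overlaps each other group, while both Card9 KO MI libraries lie below both WT Sham libraries.

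Genes for proteins that hold plasminogen or clear its activators were among the risers, with 5 of 6 tested called higher in WT MI, beside 27.7% of all genes. Anxa2 and S100a10, which together form a cell-surface receptor for plasminogen and Plat, had means of 33.2 ± 7.23 and 37.5 ± 0.0212 FPKM in WT Sham and 218 ± 24.6 and 130 ± 3.68 in WT MI. Itgam and Itgb2, the chains of the leukocyte integrin Mac-1 that partners with the urokinase receptor, rose from 2.71 ± 0.714 and 3.78 ± 2.43 FPKM to 32.1 ± 2.10 and 42.3 ± 2.13. Itgam is also 1 of the 12 macrophage markers. The limma adjusted p was at most 3.82e-04 for these 4 genes.

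Of the clotting factors outside the tissue factor complex, 2 of 15 passed the filter and both rose in WT MI, where 27.7% of all genes were called higher. They were F13a1, the fibrin cross-linking subunit that macrophages and platelets carry, which went from 13.7 ± 2.51 FPKM in WT Sham to 50.1 ± 3.54 in WT MI, and Vwf, von Willebrand factor of endothelium, at 9.99 ± 0.849 and 13.8 ± 0.453. The call for Vwf was lost under each other scaling (adjusted p of 0.0971 to 0.253) and without WT Sham replicate 2, WT MI replicate 1 or WT MI replicate 2 (0.0899 to 0.123). Of the anticoagulants, 4 of 5 tested rose in WT MI, beside the same 27.7% of all genes. Procr, the endothelial protein C receptor, read 0.42 and 0.88 FPKM in WT Sham and 4.96 and 4.25 in WT MI, while protein C itself (Proc) was listed in no library. Pros1, protein S, rose from 6.88 ± 0.615 to 14.2 ± 1.55 FPKM. Tfpi2, a relative of Tfpi that inhibits plasmin, read 0.42 and 0 FPKM in WT Sham and 3.60 and 3.70 in WT MI, and Gas6, a protein S relative, rose from 53.1 ± 0.177 to 71.6 ± 4.41. The call for Gas6 was lost under each other scaling (adjusted p of 0.0577 to 0.0992) and without WT MI replicate 2 (0.0727). In WT Sham, Tfpi2 stood at an estimated 2.03 and 0 fragments and Procr at 2.12 and 4.23, around the floor of 3 fragments. Both passed the filter through the infarct libraries alone. By these calls Tfpi fell where Tfpi2 rose, and Thbd had no call where its partner Procr rose. The call for Tfpi was lost when some single libraries were left out, as given above.

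Vkorc1, which recycles vitamin K for the carboxylation of factors VII and X and protein S, rose from 10.5 ± 3.39 to 29.8 ± 6.82 FPKM, the only 1 of the 3 vitamin K cycle genes called in WT MI. F2r, the thrombin receptor PAR1, rose from 16.4 ± 2.12 to 23.8 ± 1.45 FPKM (limma adjusted p = 0.0138) and was 33.0 ± 0.205 in Card9 KO MI. The call in WT MI was lost with quantile normalization (adjusted p = 0.0912), without WT Sham replicate 2 (0.0736) and without WT MI replicate 1 (0.0888). Its 3 groups did not overlap, and its difference between the infarct groups was 0.46 (95% interval 0.17 to 0.74, adjusted p = 0.109). Serping1, Ggcx, Vkorc1l1, Serpini1, Plgrkt and F2rl1 were the 6 tested genes not called in WT MI.

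Genes with the most similar profiles were found by the root mean square difference of log2(FPKM + 1), centred on each gene's mean, over the 6 libraries. The nearest were Zfp358 to F3 (0.046), Il3ra to F7 (0.23), Trip13 to F10 (0.12), Zfp60 to Tfpi (0.073), Rwdd4a to Thbd (0.023), Wdfy4 to Plat (0.056), Abcc3 to Plau (0.045), Star to Plaur (0.12) and Efs to Serpine2 (0.040). The next nearest were Slco2b1, Dbf4, Cd200r1, Cyren, Mrpl12, Itpripl2, P2ry6, Sh2d5 and Dscc1, in the same order. The match was least close for F7. Zfp358, nearest to F3, read 27.53 and 27.57 FPKM in WT Sham, 12.75 and 17.43 for WT MI, and 15.35 and 16.83 for Card9 KO MI. Abcc3, nearest to Plau, read 0.88 and 0.33 FPKM in WT Sham, 7.04 and 5.89 for WT MI, and 8.04 and 6.13 for Card9 KO MI.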

How the data were processed

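The authors sequenced libraries of oligo(dT)-enriched mRNA from 6 mouse heart samples on the Illumina HiSeq 2000 system, mapped filtered reads to mm9 with BWA and Bowtie2 (versions and annotation not given in the sources used here) and deposited FPKM per gene and library. A gene missing from a library's file was set to 0. FPKM fix no depth, and only 72.6% to 75.4% of the low values used in a library came close to whole fragments. No count test was therefore run, and fragments are estimates. Of 17441 gene numbers, 17390 matched a symbol.

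Differences were tested on log2(FPKM + 1) with limma 3.58.1 (R 4.3.3; lmFit, eBayes with trend) over all 3 groups, for the 13120 genes with at least 1 FPKM in at least 2 libraries, with Benjamini-Hochberg adjustment over all of them. The step was tested on simulated data. Fold changes on this scale understate changes of low genes. The 9 genes, the pathway and marker lists and the rules for naming genes were chosen with earlier results of these data known. The rule named all 9 genes, Card9, up to 4 called genes of each pathway list, the substrates, and the pair of nearest profiles to each gene. Serping1, Ggcx, Vkorc1l1, Serpini1, Plgrkt, F2rl1, Proc, Alb, Ahsg and Apoa2 were named after their values were seen. Promoter windows came from RefSeq and were matched exactly to mm9. The alternatives changed the added constant, the filter, the scaling, the groups in the fit, the replicate block and the libraries included. 1 gene of the pathway list is not reported here and was left out of the list's counts.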

Additional observations from a re-analysis of the deposited data

How the results depend on the processing

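Over the 9 genes and 3 comparisons, 450 alternative values were computed: 416 kept their direction and their side of the threshold, 22 lost a call, 4 gained one and 8 turned in sign. The number of genes called in WT MI against WT Sham, 8 as reported, was 4 when a fold of at least 2 was also asked for, and 5 to 8 over the leave-one-out fits, lowest without WT Sham replicate 2. In Card9 KO MI against WT MI it was 0 under every alternative run. The number of other pathway genes called in WT MI, 13 as reported, was 9 when a fold of at least 2 was also asked for. With all libraries kept and no fold rule, it ranged from 10 with quantile normalization to 14 with no filter. The signs that turned were all of differences that were not called, each over the leave-one-out fits: Thbd in WT MI against WT Sham (-0.19 to 0.034), and between the infarct groups F3 (-0.16 to 0.40), F7 (-0.39 to 0.80, and -0.19 without Card9 KO MI replicate 1), F10 (-0.15 to 0.49, and -0.11 without WT MI replicate 2) and Plau (-0.15 to 0.28, and -0.03 without WT MI replicate 2). The cause was not tested.

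Another scaling moved the centre of all genes. The median log2 difference in WT MI against WT Sham was 0.19 as deposited, 0.05 with the upper quartile and -0.07 with quantile normalization, with 3637 higher and 1232 lower calls, 2831 and 1856, and 2287 and 2414. In Card9 KO MI against WT Sham it was 0.24, 0.09 and -0.09, with 4569 and 1875, 3611 and 2534, and 2843 and 3409. No called gene of the 9 changed direction under these. The all-gene count in Card9 KO MI against WT MI was 184, and 9 without WT MI replicate 1 and 12 without the filter. Same-numbered libraries did not deviate together (r of 0.0024, -0.0083 and 0.020 across 13120 genes), and the main fit used no pairing. With 2 libraries a group, these r values cannot exclude a pairing with a small effect or one limited to some genes. With the replicate number as a block, 8 genes were called in WT MI against WT Sham, 0 in Card9 KO MI against WT MI and 8 in Card9 KO MI against WT Sham, and the block changed no call among the 9. With 2 libraries a group, and under 3 estimated fragments for F7 and F10 in WT Sham, small differences were not resolvable.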
